A study of Mus musculus with 127 samples.

Results

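The genes described here encode the nuclear-encoded subunits of the mitochondrial respiratory chain and of the ATP synthase. They were measured in sorted single bone marrow cells, most but not all of the granulocyte lineage. They were chosen by symbol: the Nduf genes (without the Ndufaf assembly factors), the Uqcr genes, the families Cox4 to Cox8, the Atp5 genes, the 4 Sdh genes, Cyc1 and Cycs. This gave 87 of the 23946 genes in the table. Complex I (NADH dehydrogenase) held 38 of them, complex II (succinate dehydrogenase) 4, complex III (cytochrome bc1) 9, complex IV (cytochrome c oxidase) 18 and complex V (ATP synthase) 17, and Cycs encodes the carrier cytochrome c. In at least 1 cell 82 of the 87 were above 0. Atp5s and Atp5sl match the rule by symbol but encode factors and not subunits, and they stay in the counts of complex V.

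The cells came from wild-type C57BL/6 mice. Marrow was taken from crushed hind limb bones, enriched with CD117 beads and sorted into 3 gates named by the labels as CD11b+ Ly6g high GMP-P (46 cells), CD11b+ Ly6g low GMP-P (41 cells) and CD11b+ GMP-P (40 cells). They are called Ly6g high, Ly6g low and CD11b+ below. CD11b is a surface integrin of myeloid cells, Ly6g a surface protein of the neutrophil lineage, and CD117 the receptor tyrosine kinase Kit of progenitors. Single cells were captured on a Fluidigm C1 chip, their cDNA was amplified with the SMARTer chemistry, and Nextera XT libraries were made. The labels name no animal and no age, so each gate counts as 1 sample: values are given with their spread over cells, no p-value is given, and a gate cannot be told apart from its capture run. The submitters also assigned each cell to 1 of 11 classes, with names such as Myelo-2 or Gran-1. Besides Myelo and Gran cells, the CD11b+ gate held 5 HSCP-2, 3 Mono, 1 Eryth and 1 Multi-Lin cells. The Ly6g high gate held 2 HSCP-2 cells and 1 Mono cell, and the Ly6g low gate 1 Mono and 1 MDP cell. How the classes were made is not given in the sources used here, and any of the genes below may have entered that assignment, so contrasts between classes are descriptions.

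The respiratory chain passes electrons from NADH (through complex I) and succinate (through complex II) to ubiquinone, complex III, cytochrome c and complex IV, which reduces oxygen. Complexes I, III and IV pump protons across the inner mitochondrial membrane, and the ATP synthase uses the return of these protons, through its ring of c subunits, to make ATP. Some core subunits of complexes I, III, IV and V are encoded by mitochondrial DNA, and no mitochondrially encoded gene is a row of this table. Neutrophils are known for few mitochondria and for an energy supply that rests largely on glycolysis, whereas their precursors in the marrow hold more mitochondria.

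Values are TPM, the share of transcripts scaled to a fixed total, which are scaled for transcript length, so levels of different genes can be compared. Because every cell sums to the same total, a few very abundant transcripts lower all others. In these cells those were the granule protein genes: a list of 38 took a median of 60.8% of TPM in Ly6g high cells, 57.6% in Ly6g low cells and 28.8% in CD11b+ cells. A gene was counted as detected in a cell at 1 TPM or more. A median of 1695 genes was detected per Ly6g high cell, 2521 per Ly6g low cell and 2464.5 per CD11b+ cell, so the Ly6g high cells were the shallowest in genes. Summed TPM of 13 neutrophil-lineage marker genes had medians of 546665, 506777 and 266724 in Ly6g high, Ly6g low and CD11b+ cells, with lowest cells of 539.9, 10448 and 248.9, so single cells in each gate were low for the lineage of the gate. Ly6g itself was detected in 36 of 46 Ly6g high, 28 of 41 Ly6g low and 8 of 40 CD11b+ cells. One Ly6g low cell carried 222546 TPM of 4 basophil and mast cell markers, and Epx, Ppbp, Ebf1, Cd3g and Klrb1c of the eosinophil, megakaryocyte and lymphocyte lists were at 0 in every cell of all gates. Other genes of those lists were present in single cells: the highest summed level was 1164, 6590 and 9038 TPM for the T and NK list in Ly6g high, Ly6g low and CD11b+ cells, 1550, 274 and 239 TPM for the B list and 1708, 236 and 211 TPM for the megakaryocyte list. For the erythroid list the highest summed level was 4167, 2028 and 15107 TPM in the same order. The medians of these sums were 0, apart from 111 TPM for the T and NK list in CD11b+ cells. Summed progenitor markers had medians of 0.2, 8.67 and 63.3 TPM in Ly6g high, Ly6g low and CD11b+ cells. The part of these cells in the results below was not tested, beyond the values given for single classes.

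The subunit genes together made up a small and gate-dependent share of the RNA. Their summed level per cell was lowest in Ly6g high cells, where it ran from 5824 over a median of 12971 to 36593 TPM. In Ly6g low cells it ran from 9080 over 16045 to 44291 TPM. In CD11b+ cells it ran from 9183 over 21471 to 49083 TPM. The order of the medians was therefore Ly6g high, Ly6g low, CD11b+, and the ranges overlapped over most of their length. The SD over cells was 5817 TPM in the Ly6g high gate and 8169 TPM in the Ly6g low gate, which is larger than the distance between these neighbours in the order. When the granule genes were left out and the remaining TPM rescaled to the same total, the medians were 32056, 36621 and 33278 TPM, so Ly6g low cells were then the highest and CD11b+ cells were close to Ly6g high cells. The order of the gates thus differed with and without the granule transcripts in the total, and the reason was not tested.

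Class medians of the summed share covered a wider range than gate medians, which were 1.30%, 1.604% and 2.15%. The summed share of TPM had a median of 1.41% in the 72 Myelo-2 cells, 1.28% in the 16 Myelo-4 cells and 1.46% in the 9 Myelo-3 cells. It was 2.53% in the 5 Myelo-1 cells, 2.99% in the 6 Gran-2 cells, 3.76% in the 5 Mono cells and 4.49% in the 4 Gran-1 cells. The lowest Gran-1 cell, at 3.18%, lay above the highest Myelo-2 cell, at 2.77%. The 7 HSCP-2 cells had a median of 2.47%. Granule transcripts took 58.5% of TPM in Myelo-2 and 10.2% in Gran-1 cells (medians), and 0.505% in HSCP-2 cells. After these transcripts were left out, the rescaled medians were 52162 TPM in Gran-1, 43020 in Myelo-1, 40621 in Mono, 40363 in Myelo-3, 35550 in Gran-2, 32703 in Myelo-2, 31321 in Myelo-4 and 24734 in HSCP-2. Gran-1 cells stayed at the top of the order, their lead over Myelo-2 was smaller, their ranges then overlapped, and HSCP-2 cells moved to the bottom.

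**Figure D1:**
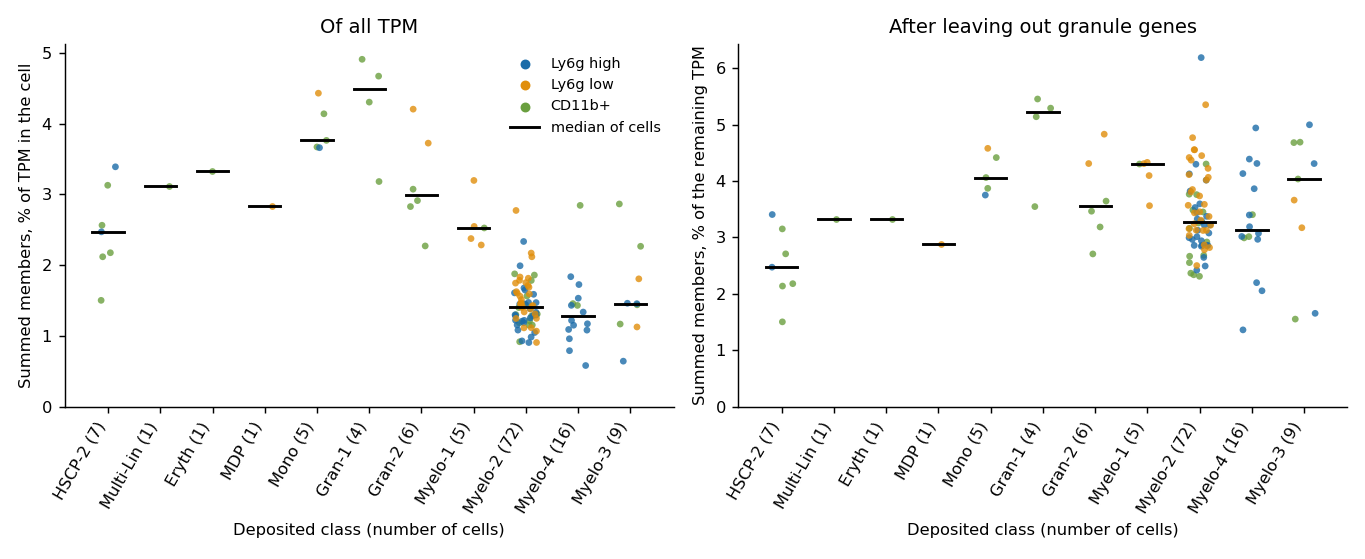
Summed level of the 87 genes in each cell by deposited class (x axis, number of cells in brackets), as a percent of the TPM in the cell (left) and of the TPM that remain when 38 granule genes are left out (right). Points are cells coloured by gate and bars are medians. On the left the 4 Gran-1 cells sit above all 72 Myelo-2 cells, and on the right the 2 classes overlap.

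The division of this sum among the complexes was alike in the 3 gates. Complex I supplied a median of 32.3% of it in Ly6g high, 34.5% in Ly6g low and 31.7% in CD11b+ cells. Complex IV supplied 28.4%, 24.96% and 22.6%, and complex V 24.1%, 26.1% and 27.3%. Complex III supplied 11.5%, 11.6% and 13.1%, and complex II 1.68%, 2.003% and 1.74%. The SD over cells of the complex IV share was 9.46, 5.76 and 12.1 percentage points, so the shift between complexes IV and V from gate to gate was smaller than the spread of single cells.

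Detection of the subunits followed the number of genes seen in a cell. A Ly6g high cell had 18 to 78 of the 87 genes detected (median 43), a Ly6g low cell 25 to 78 (median 54) and a CD11b+ cell 14 to 81 (median 57.5). As a share of all genes detected, the medians were 2.36%, 2.16% and 2.06%, the reverse order. Across all cells the number of subunits detected and the number of genes detected had a Spearman correlation of 0.94, given as a description of cells that share libraries and depth. Only 3 members were detected in at least 90% of Ly6g high cells, against 23 in Ly6g low and 7 in CD11b+ cells. Of the 77 measured members, 72 were detected in a smaller share of Ly6g high than Ly6g low cells, and of all 3983 measured genes 90% were.

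Some cells held few of the subunits. All 4 CD11b+ cells of class Myelo-3 had only 15 to 17 subunits detected among 821 to 1811 genes, and 1 CD11b+ cell of class HSCP-2 had 14 among 1566 genes. These were 0.894 to 2.07% of the genes in each cell, so 1 of the 5, with 17 subunits among 821 genes, was near the median share of its gate. Their sums came from few genes: in 1 of the Myelo-3 cells complex IV made 85.4% of the sum, and in another complex III made 50.2%. The 3 Myelo-3 cells of the Ly6g high gate had 32 to 34 subunits detected among 1282 to 1606 genes. The 2 of the Ly6g low gate had 25 and 26, the lowest counts of that gate. Counts in both gates were above those of the CD11b+ Myelo-3 cells but below the median of their gate. As a share of the genes in each cell, the subunits were 2.05 to 2.59% in the Myelo-3 cells of these gates. Leaving out all Myelo-3 cells left the gate contrasts below nearly as they were. At least 2-fold lower in Ly6g high than in Ly6g low cells were 17 members, against 24.5% of all genes. At least 2-fold higher in CD11b+ than in Ly6g high cells were 27, against 45.3%.

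**Figure D2:**
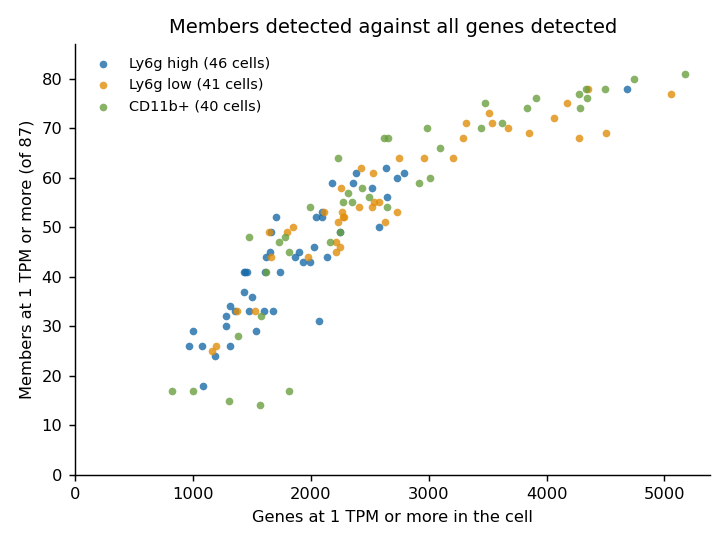
Number of the 87 subunit genes at 1 TPM or more (y axis) against the number of all genes at 1 TPM or more (x axis), 1 point per cell, coloured by gate. Most cells lie on 1 rising band, and 5 CD11b+ cells with 14 to 17 subunits lie at its lower end or below it.

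Levels of single subunits ranged widely, and complex IV held the highest ones. Cox6a1, the ubiquitous form of subunit VIa, had the highest mean over gates of all 87 genes. It ran from 0 over a median of 883.4 to 5895 TPM in Ly6g high cells, from 0 over 1287 to 3011 in Ly6g low cells and from 0 over 1080 to 8969 in CD11b+ cells. Its mean levels of 1154, 1320 and 1444 TPM differed by less than the spread of cells in any gate. Cox4i1, the ubiquitous form of subunit IV, followed with means of 632, 643 and 1165 TPM, but a single CD11b+ cell at 12405 TPM gave 26.6% of the sum in that gate. Uqcrb, a small subunit of complex III, had means of 420, 602 and 828 TPM, and Uqcrh, the hinge protein of the same complex, 366, 251 and 393 TPM. In complex II the highest were Sdhb (277, 171 and 218 TPM) and Sdhd (104, 151 and 207 TPM). The 2 highest of complex V were Atp5l (subunit g of the membrane part; 499.5, 427 and 564 TPM) and Atp5h (subunit d of the peripheral stalk; 347, 521 and 611 TPM). In complex I they were Ndufa4, first assigned to complex I and found with complex IV (342, 480.2 and 515 TPM), and Ndufa3 (333, 432 and 449 TPM).

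By role, the median over members of the mean level, with gates weighted equally, was 338 TPM for the 11 ubiquitous complex IV genes and 389 TPM for the 4 peripheral stalk genes. It was 277 TPM for the 7 complex III genes other than the redox carriers, and 280 TPM for the alpha and beta subunits of the catalytic head. The 31 accessory genes of complex I had a median of 155 TPM and the 7 core genes, which include its flavin and iron-sulfur subunits, 89.9 TPM. The 2 redox carriers of complex III, Cyc1 and Uqcrfs1, had a median of 94.04 TPM, and the 4 genes of complex II 118 TPM. Longer transcripts had lower levels although TPM are scaled for length: over the 82 members above 0, mean level and the longest annotated transcript had a Spearman correlation of -0.47. The median longest transcript was 1623 bases for the complex I core group and 709 for the ubiquitous complex IV group, so role and length cannot be told apart here.

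**Figure D3:**
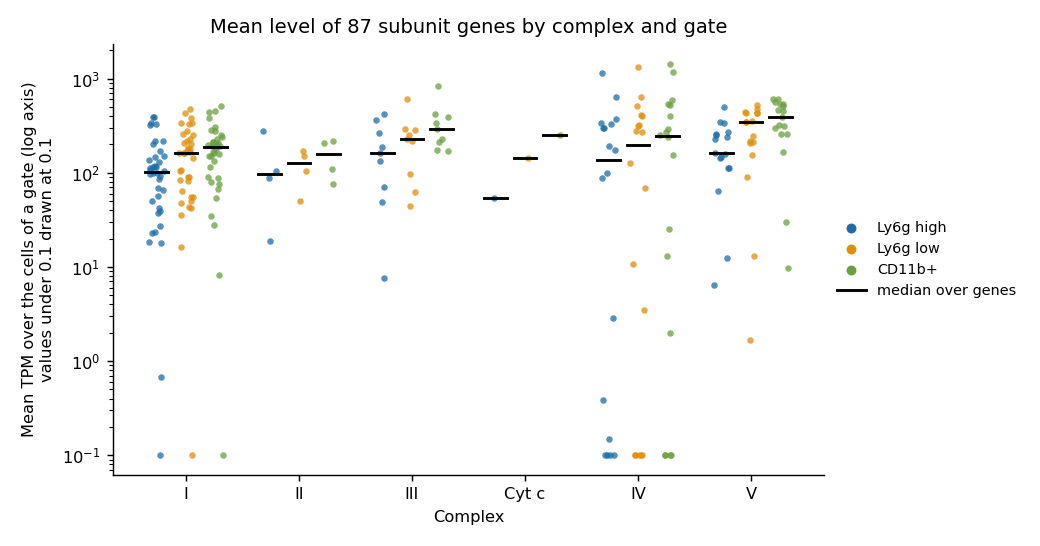
Mean TPM over the cells of each gate (y axis, log axis, values under 0.1 drawn at 0.1) for each of the 87 genes, by complex (x axis) and gate (colour); black bars are medians over genes. Complex IV holds both the highest genes, led by Cox6a1 and Cox4i1, and the tissue isoforms at or near 0.

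Many cytochrome oxidase subunits have an alternative form made mainly in heart and skeletal muscle, testis or lung, and these marrow cells held the ubiquitous forms. Cox6a2, Cox8b (muscle), Cox7b2 and Cox8c (testis) were at 0 in every cell, as was Ndufa4l2, the paralog of Ndufa4. Cox4i2, the lung form of subunit IV, was detected in 3 cells, at 4.55, 17.96 and 74.8 TPM, and all 3 were of class Mono. In the same order these cells had 5173, 4679 and 4333 genes detected, above the median of their gates. Class and number of genes detected cannot be told apart here. Cox7a1, the heart and muscle form, was detected in 4 cells, at 6.85, 10.4, 143 and 509 TPM, and the highest of them was an HSCP-2 cell. Cox6b2, the testis form of subunit VIb, was less rare: it was seen in 3 Ly6g high, 7 Ly6g low and 9 CD11b+ cells. Among the 8 Gran-1 and Gran-2 cells of the CD11b+ gate 4 had it, at 37.9, 139, 239 and 349 TPM, and 1 of the 14 Myelo-2 cells of that gate had it, at 21.4 TPM. Its ubiquitous partner Cox6b1 had means of 301, 316 and 396 TPM in the 3 gates against 2.86, 10.7 and 25.1 TPM for Cox6b2. Atp5s and Atp5sl, the factors that are not subunits, were detected in 2, 2 and 5 and in 2, 4 and 5 cells of Ly6g high, Ly6g low and CD11b+.

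Since these genes belong to 1 pathway and lie on many chromosomes, the start regions of 71 of the 87 could be matched to RefSeq windows (build GRCm38.p6, 250 bases before to 50 after the annotated start) and searched for 3 motifs known from genes of this pathway. The motif of NRF1, a regulator of respiratory genes, was searched as GCGCATGCG on both strands. Of the 71 genes 9 (12.7%) held it in at least 1 of their windows. The share was 1.95% of 27025 RefSeq genes and 3.86% of the 10715 with a value above 0 in these cells. The ETS motif bound by GABP was searched as CCGGAAG, and 16 genes (22.5%) held it, against 9.93% and 19.2%. The YY1 motif was searched as AAGATGGCG, and 8 genes (11.3%) held it, against 1.64% and 3.42%. At least 1 of the 3 was in 28 genes (39.4%), against 12.7% and 24.7%. The NRF1 matches lay in 2 genes of complex I, 2 of complex III, Cycs, 1 of complex IV and 3 of complex V, and the YY1 matches in 5 genes of complex I and 3 counted with complex V, of which Atp5sl is no subunit. Atp5j, the coupling factor 6 of the peripheral stalk, had means of 337, 475 and 322 TPM in Ly6g high, Ly6g low and CD11b+ cells. It held a YY1 match and an ETS match. It and 4 genes whose levels are described here give examples of matches before the annotated start. Only such matches were eligible for printing. Most genes with a YY1 match held it only after the start, at 22 to 35 bases, so the Atp5j example is not typical in position. Printed are 60 bases around the match, all before the annotated start. They run 5′ to 3′ on the strand of the gene, with the match of the named motif in capitals. The genes are Cox6a1 (NRF1; chr5:115349086-115349145, minus strand), Atp5g2 (NRF1; chr15:102671055-102671114, minus strand), Cycs (NRF1; chr6:50566596-50566655, minus strand), Atp5h (ETS; chr11:115419924-115419983, minus strand) and Atp5j (YY1; chr16:84835030-84835089, minus strand).
Cox6a1: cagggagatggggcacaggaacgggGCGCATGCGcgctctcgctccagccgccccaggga
Atp5g2: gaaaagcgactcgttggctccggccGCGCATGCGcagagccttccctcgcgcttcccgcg
Cycs: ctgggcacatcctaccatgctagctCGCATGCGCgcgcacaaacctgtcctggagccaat
Atp5h: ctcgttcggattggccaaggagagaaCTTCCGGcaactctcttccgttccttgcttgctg
Atp5j: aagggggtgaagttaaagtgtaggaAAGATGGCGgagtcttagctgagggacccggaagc
In Cycs the match reads CGCATGCGC and in Atp5h CTTCCGG, which are the same motifs on the opposite strand. The Atp5j stretch also holds the ETS letters CCGGAAG near its end, in lower case. A match says only that these letters are in the window.

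Between the 2 Ly6g gates the subunits were lower in Ly6g high cells, as most genes were. The contrast is the log2 ratio of mean TPM with 1 TPM added to each mean, over genes detected in at least 25% of cells of either gate, and a gene is counted as different at 2-fold or more. Of 77 measured members 17 were at least 2-fold lower in Ly6g high than in Ly6g low cells and 0 were higher, while of all 3983 measured genes 23.7% were lower and 7.96% higher. The median log2 ratio of the members was -0.47 and that of all genes -0.29. The members' share of 2-fold lower genes, 22.1%, was close to that of all genes.

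The members that were lower were spread unevenly over roles. Among the 7 core genes of complex I the median log2 ratio was -1.53 and 4 were at least 2-fold lower, against a median of -0.48 and 7 of 30 for the accessory genes. Ndufs1, the largest iron-sulfur subunit, had the lowest ratio: it was detected in 3 of 46 Ly6g high cells (6.52%, exact binomial 95% interval 1.37 to 17.9%, for counting error only), against 15 of 41 in the other gate (36.6%, 22.1 to 53.1%). In the same order its highest values were 19.7 and 264 TPM, its medians 0 and 0.14 TPM, and the log2 ratio of means was -3.38. Ndufs8, another iron-sulfur subunit, was detected in 15 of 46 and 26 of 41 cells, with medians of 0 and 67.4 TPM, highest values of 275 and 860 TPM and a log2 ratio of -2.81. Uqcrfs1, the Rieske iron-sulfur protein of complex III, was detected in 9 of 46 and 25 of 41 cells, had means of 7.70 and 62.1 TPM and a log2 ratio of -2.86. Sdhc, a membrane anchor of complex II, had a log2 ratio of -2.39. For all 4 genes the ranges of the gates overlapped, since each was at 0 in some cells of both.

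Complex IV showed no such members. Of its 11 measured genes 0 differed by 2-fold, and their median log2 ratio was -0.32 beside -0.29 for all genes. Complex V had a median of -0.57 with 3 of 15 lower, which were Atp5g2, Atp5g3 and the stalk subunit Atp5o. Atp5o ran from 0 over a median of 4.86 to 1543 TPM in Ly6g high cells, while in Ly6g low cells it ran from 0 over 338 to 1896 TPM. Cycs, the electron carrier, had means of 54.0 and 142 TPM, medians of 25.4 and 97.1 TPM and a log2 ratio of -1.38. Cycs, the Cox and Nduf genes and the Atp5g genes have processed pseudogenes in the mouse genome, so reads may have been divided between a gene and its copies, and single levels are uncertain to that extent.

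Of the 77 measured members 19 had a higher mean in Ly6g high cells, as had 37.1% of all measured genes, and 0 of the 19 reached 2-fold. The 3 with the highest ratios were Sdha, Ndufb8 and Ndufv1. Sdha, the flavoprotein of complex II, had means of 88.03 and 49.7 TPM (log2 ratio 0.81), but 50.9% of its Ly6g high sum came from 1 cell and it was detected in 10 of 46 cells against 16 of 41. Ndufb8 had means of 391 and 227 TPM (log2 ratio 0.78) and was detected in 30 of 46 and 25 of 41 cells. Ndufv1, the NADH-binding subunit, had means of 84.8 and 50.05 TPM, with 38.6% of the Ly6g high sum in 1 cell.

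How much of this contrast held depended on which cells were set side by side. In cells of either gate with 1500 to 3000 genes detected (29 and 25 cells) 11 members were higher and 10 lower by 2-fold, against 17.998% and 14.7% of all genes, with a median log2 ratio of -0.0013 for members and 0.08 for all genes. There the core genes of complex I had a median of -0.75, the accessory genes 0.03 and the 3 c subunit genes -0.11. Among odd-numbered cells 12 members were lower and 9 higher, against 21.6% and 17.5% of all genes. Among even-numbered cells 29 were lower and 1 higher, against 41.1% and 10.1% of all genes. Within Myelo-2 cells alone (27 and 31 cells) 11 of 76 measured members were lower and 4 higher, against 19.8% and 13.1% of all genes, with medians of -0.23 for members and -0.13 for all genes.

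Within Myelo-2 the lowest ratios were those of Ndufs1 (-3.48), Uqcrfs1 (-2.85), Atp5g3 (-2.55) and Ndufs8 (-2.38). Other iron-sulfur subunits were nearer to 0, with Ndufs7 at -0.76, Ndufv2 at -0.25 and Sdhb at -0.21. These cells are a subset of those above and no independent set. Ndufb5, an accessory gene of complex I, went the other way: 19 of 27 cells of the Ly6g high gate had it against 12 of 31 of the Ly6g low gate, with medians of 55.2 and 0 TPM, highest values of 857 and 188 TPM and a log2 ratio of 1.69. Ndufb6 had a log2 ratio of 1.19 with detection in 18 of 27 and 17 of 31 cells. Cyc1, cytochrome c1, had one of 1.14 with detection in 14 of 27 and 11 of 31 cells.

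**Figure D4:**
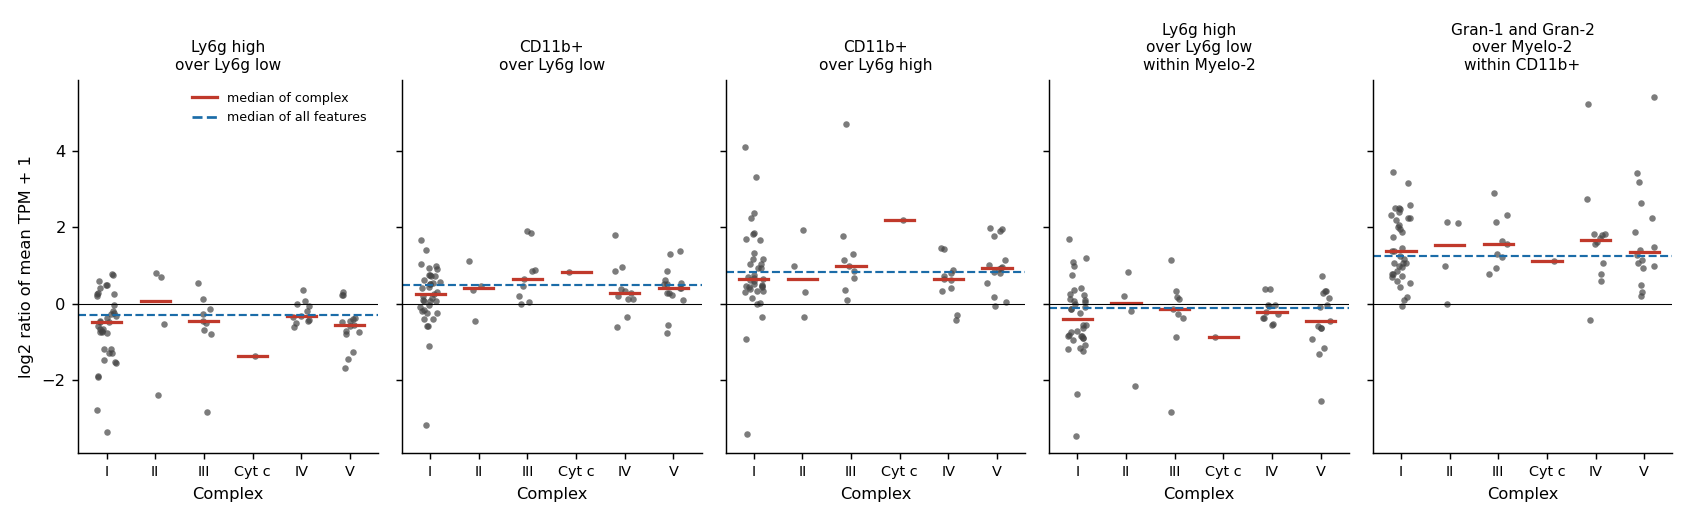
Log2 ratio of mean TPM + 1 (y axis) for each measured subunit gene by complex (x axis) in 5 contrasts; red bars are medians over the genes of a complex and the dashed line is the median of all measured genes. In the contrast of Ly6g high with Ly6g low cells complex IV is the narrowest of the complexes with more than 1 gene.

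CD11b+ cells had higher means than Ly6g high cells for 69 of the 77 measured subunits, and for 74.5% of all measured genes. At least 2-fold higher were 27, and 1 was lower, against 44.5% and 6.93% of all 4447 measured genes, with a median log2 ratio of 0.80 for members and 0.83 for all genes. With granule genes left out, the median of members was 0.14. Against Ly6g low cells 9 of 77 were higher and 2 lower, against 30.3% and 7.83% of 4774 genes, with medians of 0.37 and 0.48, and the members' median was -0.066 with granule genes left out. These contrasts share cells, so they are not independent. In Myelo-2 cells alone the CD11b+ gate had 11 of 75 members higher and 8 lower than Ly6g high, against 23.2% and 19.8% of all genes. It had 2 of 77 higher and 13 lower than Ly6g low, against 17.03% and 23.4% of all genes. The CD11b+ gate held 14 Myelo-2 cells of 40, the Ly6g high gate 27 of 46 and the Ly6g low gate 31 of 41.

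Uqcrfs1 had the highest ratio to Ly6g high cells, 4.72, with a CD11b+ mean of 228 TPM, of which 1 cell at 4001 TPM gave 43.8%. Its CD11b+ median was 17.3 TPM and it was detected in 29 of 40 cells. Ndufs1 (4.12) and Ndufs8 (3.34) followed. Cyc1 had log2 ratios of 1.79 to Ly6g high and 1.92 to Ly6g low, but 59.5% of its CD11b+ sum came from 1 cell at 4100 TPM, and without cells under 1500 genes the ratio to Ly6g high was -0.018. Cox7a2l, a factor that joins complexes III and IV into supercomplexes, had the log2 ratios 1.43 and 1.79, was detected in 26 of 40 CD11b+ cells against 15 of 46 and 14 of 41, and had medians of 46.96, 0 and 0 TPM. Cox7a2, its ubiquitous relative in complex IV, had similar means in the 3 gates (252, 339 and 321 TPM for CD11b+, Ly6g high and Ly6g low).

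Ndufs5, an accessory subunit of complex I, was the only member at least 2-fold lower in CD11b+ than in Ly6g high cells, and with Ndufa8 it was 1 of 2 that were lower than in Ly6g low cells. Its means were 98.0 TPM in Ly6g high, 82.02 in Ly6g low and 8.13 in CD11b+ cells, and its highest cells were at 1480, 575 and 81.3 TPM. It was detected in similar shares of the cells, 41.3%, 46.3% and 40%, so the gates differed in the level among cells with the gene. The ranges overlapped, as every gate had cells at 0. Within Myelo-2 cells its means were 56.9, 55.7 and 4.64 TPM, and within the CD11b+ gate it was at 20.8 TPM in Gran and 4.64 TPM in Myelo-2 cells. Ndufa8, another accessory subunit, had means of 147, 168 and 76.8 TPM in Ly6g high, Ly6g low and CD11b+ cells. Atp5j2, subunit f of the ATP synthase, followed at a log2 ratio of -0.77 to the Ly6g low gate, and its means were 251, 441 and 259 TPM in the same order.

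Gran and Myelo-2 cells of the CD11b+ gate did not overlap in their summed level of subunits, and most subunits were higher in Gran cells. In the 8 Gran-1 and Gran-2 cells 54 of 79 measured members (68.4%) were at least 2-fold higher than in the 14 Myelo-2 cells and 0 were lower, against 55.4% and 11.8% of all 6679 measured genes. The median log2 ratio was 1.41 for members and 1.26 for all genes. The summed level was 22715 to 49083 TPM per Gran cell and 9183 to 18773 TPM per Myelo-2 cell, and these ranges did not overlap. The Gran cells had 2989 to 4494 genes detected and the Myelo-2 cells 1475 to 2643, and these ranges did not overlap either. Read depth per cell is not given. Granule transcripts took 9.14 to 18.7% of TPM in the Gran cells and 46.1 to 62.4% in the Myelo-2 cells. With those transcripts left out, 27 members were higher and 1 lower, against 40.8% and 22.9% of all genes. The medians were 0.50 for members and 0.44 for all genes, and the summed levels overlapped (medians 35959 and 30409 TPM). After subtraction of the median of all genes, 16 were higher and 6 lower, against 32.4% and 29.4% of all genes. The ranges of the Gran and Myelo-2 cells overlapped for all 79 members, while 0.973% of all genes had higher and 0.15% lower ranges that did not overlap.

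The 3 genes of the c subunit were at least 2-fold higher in Gran cells. The c subunit forms the proton-carrying ring, and the genes Atp5g1, Atp5g2 and Atp5g3 encode the same mature protein with different import sequences, so that reads can be hard to divide among them. Atp5g1 ran from 234 over a median of 830 to 1604 TPM in the 8 Gran cells and from 0 over 18.7 to 580.0 TPM in the 14 Myelo-2 cells, with a log2 ratio of 3.44. Atp5g2 ran from 139 over 720 to 1971 TPM and from 0 over 116 to 477 TPM, with a log2 ratio of 2.64. Atp5g3 ran from 79.3 over 303 to 902 TPM and from 0 over 60.4 to 644 TPM, with a log2 ratio of 1.41. All 8 Gran cells had all 3 genes, and the lowest Gran cell lay within the Myelo-2 range for each.

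Across the gates the c subunit genes were at 112, 155 and 387 TPM (Atp5g1), 142, 347 and 538 TPM (Atp5g2) and 63.97, 210 and 255 TPM (Atp5g3) in Ly6g high, Ly6g low and CD11b+ cells. Atp5g2 supplied the largest part of their sum in each gate, at 44.7%, 48.8% and 45.6%, but in CD11b+ cells 1 cell at 6702 TPM gave 31.2% of the Atp5g2 sum. Without that cell the Atp5g2 mean of the gate was 379.7 TPM, beside 387 TPM for Atp5g1. Atp5g3 was seen in 14 of 46 cells of the Ly6g high gate against 36 of 41 of the Ly6g low gate, and its medians there were 0 and 125 TPM. Among Myelo-2 cells 9 of 27 and 28 of 31 had it in these gates, with medians of 0 and 108 TPM. Of the Ly6g high sum of Atp5g1, 53.1% came from 1 Myelo-4 cell at 2738 TPM. The Mono cells had summed c subunit means of 2357 TPM in the CD11b+ gate.

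**Figure D5:**
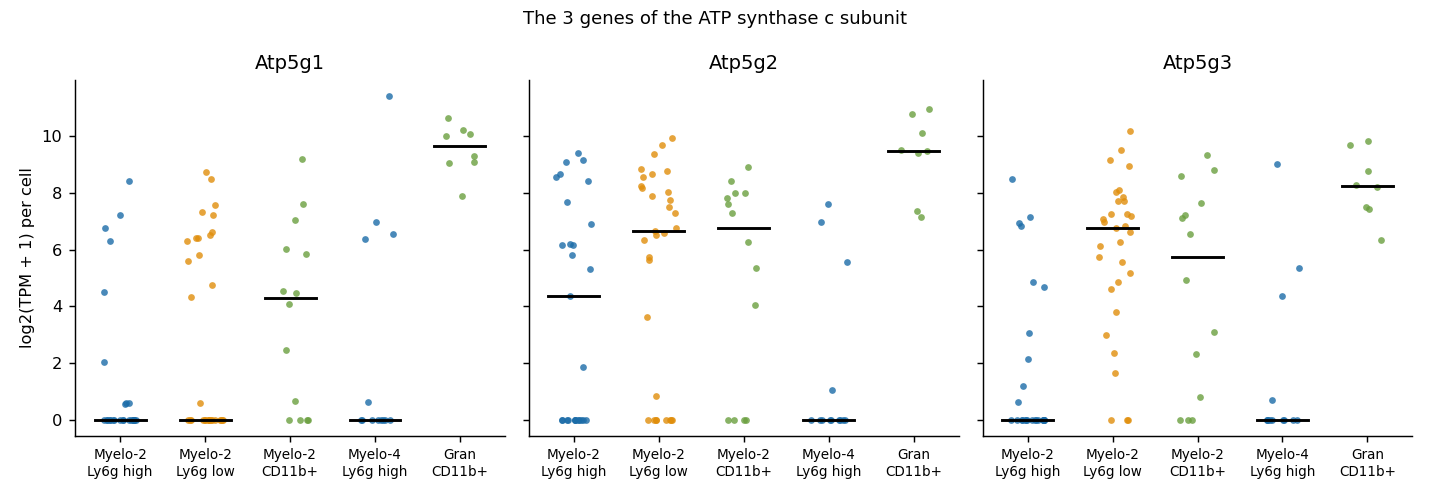
Log2(TPM + 1) per cell (y axis) of the 3 genes of the ATP synthase c subunit in Myelo-2 cells of each gate, Myelo-4 cells of the Ly6g high gate and Gran-1 plus Gran-2 cells of the CD11b+ gate (x axis); bars are medians. All 8 Gran cells are above 0 for each gene, and most Ly6g high Myelo-2 cells are at or near 0 for Atp5g1 and Atp5g3.

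Other members differed as much between these classes. Cox7a2l ran from 143 over 355 to 624 TPM in Gran cells and from 0 over 0.825 to 1320 TPM in Myelo-2 cells, where 1 cell gave 77.8% of the sum. Ndufa12 ran from 91.8 over 327 to 1460 TPM in Gran and from 0 over 12.6 to 645 TPM in Myelo-2 cells. Ndufs7, an iron-sulfur subunit of complex I, was detected in 7 of 8 Gran and 4 of 14 Myelo-2 cells and had a log2 ratio of 3.46. Cycs ran from 232 over 277 to 519.8 TPM in Gran and from 0 over 68.6 to 826 TPM in Myelo-2 cells, and its log2 ratio of 1.11 was -0.15 after subtraction of the median of all genes. The members with the lowest ratios were Cox5a (-0.42), Ndufv2 (-0.07) and Sdhc (-0.01). The Cox5a mean in Myelo-2 cells included 1 cell at 2119 TPM with 33.1% of the sum, and by medians Cox5a was at 341 TPM in Gran and 186 TPM in Myelo-2 cells. Cox6b2 and Atp5s had log2 ratios of 5.25 and 5.42. Cox6b2 rested on a few Gran cells, and Atp5s almost wholly on 1 Gran-2 cell at 337 TPM, with others at 3.19 and 2.47 TPM. Both passed the detection filter through the Gran cells alone and are among the 54, although Atp5s is no subunit.

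In the Ly6g high gate, Myelo-4 cells had fewer subunits detected than Myelo-2 cells. The 13 Myelo-4 cells had 18 to 44 detected (median 29) among 966 to 1863 genes, and the 27 Myelo-2 cells 33 to 62 (median 49) among 1359 to 2790 genes. Of 73 measured members 24 were at least 2-fold lower and 4 higher, against 45.3% and 13.7% of all 3105 measured genes, with medians of -0.44 for members and -0.75 for all genes. The summed level of the members was 11754 TPM in Myelo-4 and 12956 TPM in Myelo-2 cells (medians), a distance smaller than the SD of 3532 TPM over the Myelo-4 cells.

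Cyc1, Ndufa12 and Uqcrfs1 were listed at 0 in all 13 Myelo-4 cells, as were 3.74% of all measured genes. A gene listed at 0 in 13 of 13 cells may still be detectable in up to 24.7% of such cells (upper bound of the exact binomial 95% interval, for counting error only). In Myelo-2 cells of the gate they were detected in 14, 9 and 7 of 27 cells. Sdha was at or below 0.24 TPM in the Myelo-4 cells and detected in 8 of 27 Myelo-2 cells. Sdhd, a membrane anchor of complex II, was detected in 1 of 13 Myelo-4 and 11 of 27 Myelo-2 cells, with a log2 ratio of -6.36. Sdhb, the iron-sulfur protein of the same complex, was detected in 8 of 13 and 10 of 27 cells, with medians of 85.5 and 0.38 TPM and a log2 ratio of 1.10, but 1 cell gave 46.4% of the Myelo-4 sum, and without cells under 1500 genes the ratio was -2.69.

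The other 3 members at least 2-fold higher in Myelo-4 cells rested largely on 1 cell each. For Atp5g1 (log2 ratio 3.12) 1 Myelo-4 cell gave 90.2% of the sum, for Atp5d, the delta subunit of the central stalk (1.29, and -0.71 without its highest cell in each class), 83.99%, and for Ndufb4 (1.92) 57.8%. Without the highest cell of each gene, 40 members were lower and 2 higher, against 58.3% and 8.92% of all genes. The median of members was -1.15 against -1.62 for all genes.

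Other genes of the mitochondrion were compared in the same contrasts. Of the 77 genes of the mitochondrial ribosome, which makes the mitochondrially encoded subunits, 49 were measured between the Ly6g gates, 18 were at least 2-fold lower in Ly6g high cells and 1 higher, and the median was -0.74. Of all genes 23.7% were lower and 7.96% higher, with a median of -0.29. Of the 14 genes of the tricarboxylic acid cycle, which supplies NADH and succinate, 10 were measured, 5 were lower and 0 higher, and the median was -0.84. Of 39 assembly factors of the chain 10 were measured, 0 were lower and 2 higher, with a median of -0.18. Of 8 membrane carriers and related proteins, which move ADP, ATP, phosphate and other solutes, 7 were measured and 2 were lower, with a median of -0.84. Of 11 nuclear regulators 4 were measured and 2 were lower (median -0.72), and of 10 genes of mitochondrial DNA upkeep only 1 was measured (-0.10). For Gran against Myelo-2 cells in the CD11b+ gate, 55 of 75 ribosome genes, 11 of 14 cycle genes, 21 of 27 assembly factors and 6 of 8 carriers were at least 2-fold higher, against 55.4% of all genes, with medians of 2.06, 1.92, 2.23 and 1.72 beside 1.41 for the subunits and 1.26 for all genes. For Myelo-4 against Myelo-2 cells the carriers had a median of -2.21 with 6 of 7 lower, and the ribosome genes a median of -1.32 with 15 of 28 lower, against a median of -0.75 and 45.3% lower for all genes.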

How the data were processed

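Single-cell RNA-seq of 127 cells in 3 sort gates was used. The deposited table gives log2(TPM + 1) per gene and cell, made by the authors, and per the submitters' processing notes the tools and build were Bowtie2, RSEM and mm9, with no versions given in the sources used here. Values were turned back to TPM, which sum to 999633 to 1005383 per cell. Read depth per cell is not given, so genes at 1 TPM or more stand for it. Contrasts are log2 ratios of mean TPM over cells with a pseudocount of 1 TPM, for genes that reach 1 TPM in no fewer than 25% of cells of either group, and 2-fold or more counts as different. Since each gate is 1 sample with no named animal, no test was run. Shares of cells carry exact (Clopper-Pearson) 95% intervals.

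The members, lists and contrasts were chosen with earlier results of these data known. Genes named in the text are the 2 highest members of each complex, the 3 highest and 3 lowest ratios of each contrast among members reaching a mean of 10 TPM, isoform families and members at 0; Atp5o, Atp5sl and the 5 printed promoters were chosen after values were seen, and from other lists at most 3 genes at each end are named. A few genes are not reported here. Promoter windows and their coordinates are from RefSeq (GRCm38.p6), a build other than that of the table. The contrast code was tested on simulated data. Python 3.11.15, numpy 2.4.6, pandas 2.3.3, scipy 1.17.1 and matplotlib 3.10.9 were used. Alternatives tried were other pseudocounts, filters, scalings and subsets of cells.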

Additional observations from a re-analysis of the deposited data

How the results depend on the processing

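No paired analysis was possible because each gate is 1 sample of cells, the cell numbers name capture positions and no result comes from a test. Of the summary values under the alternatives 145 stayed within 1.5 times or the spread over cells and 35 moved. Of 2544 values of named genes and roles 1792 stayed, 736 moved and 16 were counted as changing sign. A change of sign was counted only for values at least 2-fold different as reported. Smaller values that changed sign are among those that stayed or moved. The median for CD11b+ over Ly6g low, 0.37, was -0.066 with granule genes left out, -0.11 after subtraction of the median of all genes, -0.087 on the difference of mean log2 values and -0.090 in Myelo-2 cells. These medians changed sign but are counted among the 145, as each stayed within 1.5 times. On the difference of mean log2(TPM + 1), which weighs detection more, the median for Ly6g high over Ly6g low was -1.35. There 54 members were lower, against 39.7% of all genes. For CD11b+ over Ly6g high it was 1.41 with 55 higher, against 45.3%. For Myelo-4 over Myelo-2 it was -1.51 with 51 lower, against 44.6%, and Atp5d was at -1.09. For Gran over Myelo-2 it was 2.84. For Ly6g high over Ly6g low within Myelo-2, 31 were lower, against 21.6%. With granule genes left out, summed medians were 32056 TPM (Ly6g high), 36621 (Ly6g low) and 33278 (CD11b+). CD11b+ over Ly6g high then had a median of 0.14 with 13 higher and 5 lower, against 29.6% and 16.6% of all genes. CD11b+ over Ly6g low had 6 higher and 6 lower, against 19.5% and 16.1%. Ly6g high over Ly6g low had 2 higher and 16 lower, against 12.01% and 21.8%. Gran over Myelo-2 had a median of 0.50 with 27 higher, against 40.8%. Splits after subtraction of the median of all genes are given as higher and lower, with the shares of all genes. Ly6g high over Ly6g low had 3 and 14, against 12.8% and 16.3%. CD11b+ over Ly6g low had 4 and 7, against 17.8% and 16.1%. CD11b+ over Ly6g high had 12 and 6 (median -0.026), against 23.2% and 20.9%. Myelo-4 over Myelo-2 had 24 and 18 (median 0.31), against 27.5% and 34.4%. Gran over Myelo-2 had 16 and 6 (median 0.16), against 32.4% and 29.4%. There the accessory genes of complex I were at -0.038, Cox6a1 at -0.19, Cycs at -0.15, Ndufa3 at -0.18, Ndufb8 at -0.20 and Uqcrfs1 at -0.022 in Gran cells.

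Between the Ly6g gates 29 members were lower in even-numbered cells, 11 in Myelo-2 cells and 10 at 1500 to 3000 genes. Of all genes 41.1%, 19.8% and 14.7% were lower in these settings, and Ndufa12 was at 0.27 in the last. Over Ly6g low, CD11b+ had 25 higher in odd-numbered, 4 in even-numbered and 2 in Myelo-2 cells, against 43.03%, 23.8% and 17.03% of all genes. Over Ly6g high it had 11 in Myelo-2 cells (median 0.13) and 13 at 1500 to 3000 genes, against 23.2% and 28.8% of all genes. Cyc1 was at -0.69 at 1500 to 3000 genes and at -0.018 without cells under 1500 genes. For Myelo-4 over Myelo-2, 13 were lower under a 50% detection filter, against 33.3% of all genes. Without the highest cell 40 were lower (median -1.15), against 58.3%. There Atp5d was at -0.71, at -6.39 without cells under 1500 genes and at -1.44 in odd-numbered cells, Sdhb at -2.69 without cells under 1500 genes and Atp5g1 at -0.58 in odd-numbered cells. Within Myelo-2, 17 were lower in Ly6g high without the highest cell and 22 in even-numbered cells, against 27.1% and 32.01% of all genes. Atp5g1 was at 0.65 in odd-numbered cells of that contrast. The settings with 1500 to 3000 genes, with Myelo and Gran classes only and without Myelo-3 were chosen after seeing the data. Apart from those whose construction removes cells or genes, the cause was not tested. Read depth per cell is not given, so a gene at 0 cannot be told apart from one not captured.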

Other observations

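Some genes outside the respiratory chain had larger differences between Gran and Myelo-2 cells of the CD11b+ gate than most subunits had. Atpif1, the inhibitor of the reverse reaction of the ATP synthase, had means of 1196 and 126 TPM. Slc25a3, the phosphate carrier, had means of 364 and 22.8 TPM, and Slc25a4, an ADP and ATP carrier, 58.3 and 0.20 TPM. In the tricarboxylic acid cycle Suclg1 had means of 229 and 0.33 TPM and Idh3a 230 and 5.59 TPM, while Sucla2 went the other way with 14.4 and 38.2 TPM. Among assembly factors Ndufaf2 had a mean of 208 TPM in Gran cells and was listed at 0 in all 14 Myelo-2 cells, and Ecsit 47.7 TPM and also listed at 0. Of 5 nuclear regulators measured 3 were at least 2-fold lower in Gran cells, which were Gabpb1 (18.2 and 66.6 TPM), Hif1a (9.93 and 26.8 TPM) and Gabpa (1.31 and 4.49 TPM). The other 2 were at least 2-fold higher, Yy1 with means of 27.4 and 9.52 TPM and Myc with 8.20 TPM in Gran cells and listed at 0 in Myelo-2 cells. Of all measured genes 11.8% were lower and 55.4% higher. These are the extreme members of their lists, and the Gran cells had more genes detected, as given above. Ndufaf2, Ecsit and Myc, listed at 0 in the Myelo-2 cells, passed the detection filter through the Gran cells alone. The share of all measured genes at 0 in those Myelo-2 cells is not given here for comparison. How far the Gran means of the genes in this paragraph rest on single cells was not tested.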
